A study of Mus musculus with 12 samples.

Results

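The 10 hepatocyte genes described here move bile acids and organic anions or sense bile acids, and were followed through all 12 liver libraries of the series. The set was listed by name: the canalicular exporters Abcb11, Abcc2 and Abcb4, the sinusoidal uptake carriers Slc10a1, Slco1a1, Slco1a4 and Slco1b2, the sinusoidal exporter Abcc3, and the nuclear receptors Nr1h4 (FXR) and Nr0b2 (SHP). These are 10 of the 52636 gene identifiers in the count files, each matched to 1 identifier, and all 10 passed the filter on low counts that kept 14433 genes. On a high-fat diet Slco1a4 and Abcc3 fell in wild-type liver and when both genotypes were averaged, and neither was called in p53 knockout liver alone. The wild-type calls were lost in 3 and 6 of 20 alternative fits, and the averaged calls in 0 of 19. Slco1a4 was higher in p53 knockout than in wild-type liver when both diets were averaged. No canalicular exporter passed the test in any of the 7 comparisons made. The knockout call of Slco1a4 was lost in 10 of the 12 fits that left out 1 library, and its value on normal diet went from 0.72 to 0.10 on the log2 scale without 1 of them.

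Hepatocytes take bile acids from portal blood across their sinusoidal membrane and pump them into the bile canaliculus, so that most of the pool circulates between liver and intestine. FXR is a nuclear receptor that bile acids activate. It is known to raise the genes of canalicular export and to induce SHP, a repressor without a DNA-binding domain that lowers bile acid synthesis and uptake. Sinusoidal exporters return bile acids and conjugates to blood and are known to be induced when bile flow fails, while the organic anion carriers of the Slco family also transport hormones, bilirubin and drugs.

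RNA was sequenced from liver of C57BL/6 mice aged 12 weeks. The libraries fell into 4 groups of 3: p53 wild type on a normal diet (wt_normal), p53 knockout on a normal diet (ko_normal), wild type on HFD, the high-fat diet (wt_HFD), and knockout on HFD (ko_HFD). The knockout allele, the composition and length of the diet, the sex of the mice and the time of day at sampling were not stated in the labels used here. The labels leave unsaid whether the replicates of a group were separate animals. Each p-value therefore refers to the spread among the libraries at hand, some of which may be technical.

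Library totals lay between 15465187 and 20492567 counts. Values below are normalised read counts as CPM, counts scaled to a common library size, and group values are mean ± SD of 3 libraries. Trp53, which encodes p53, read 8.54 to 24.5 CPM in the 6 wild-type libraries and 0.273 to 1.62 CPM in the 6 knockout libraries. The hepatocyte markers with the highest levels, Alb and Apoa2, read at least 17789 and 12750 CPM in every library. Some libraries stood apart: skeletal muscle markers made up 1.12% of the counts of wt_normal replicate 2 and at most 0.00137% elsewhere, and mitochondrial transcripts made up 14.6% in ko_normal replicate 1, 10.3% in ko_HFD replicate 2 and 4.18% to 7.22% in the other 10. Xist, the RNA of the inactive X chromosome, had 1 to 12 counts per library and the Y-linked Ddx3y had 514 to 761, a male pattern in every library. Slco1a1 and Slco1a4 are known to differ between the sexes in mouse liver, and of 16 listed female-biased liver genes 6 were abundant enough to test and 0 were called in any comparison, with 1 to 3 at an unadjusted p under 0.05 and at most 2 called by DESeq2's Wald test or by voom.

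All 10 genes were read in every library, with levels per kilobase of exon that ran over more than an order of magnitude. Averaged over the groups, Slc10a1 stood first at 99.2 CPM per kb, followed by Slco1b2 at 90.9, Nr1h4 at 69.9, Abcb11 at 60.9 and Nr0b2 at 52.0. The lower levels were those of Slco1a1 at 42.4 CPM per kb, Abcb4 at 34.2, Abcc2 at 26.9, Abcc3 at 24.4 and Slco1a4 at 3.53. Neighbours in this order overlapped across libraries down to Abcc3. Slco1a4 alone was separate, since its highest library reached 11.3 CPM per kb and the lowest Abcc3 library read 11.4. Abcb11 was the steadiest member, with a standard deviation within groups of 0.19 on the log2 scale, below which only 13.4% of all genes lay. Nr0b2 and Slco1a4 varied most, with 0.58 and 0.54 against a median of 0.35 over all genes tested.

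**Figure D1:**
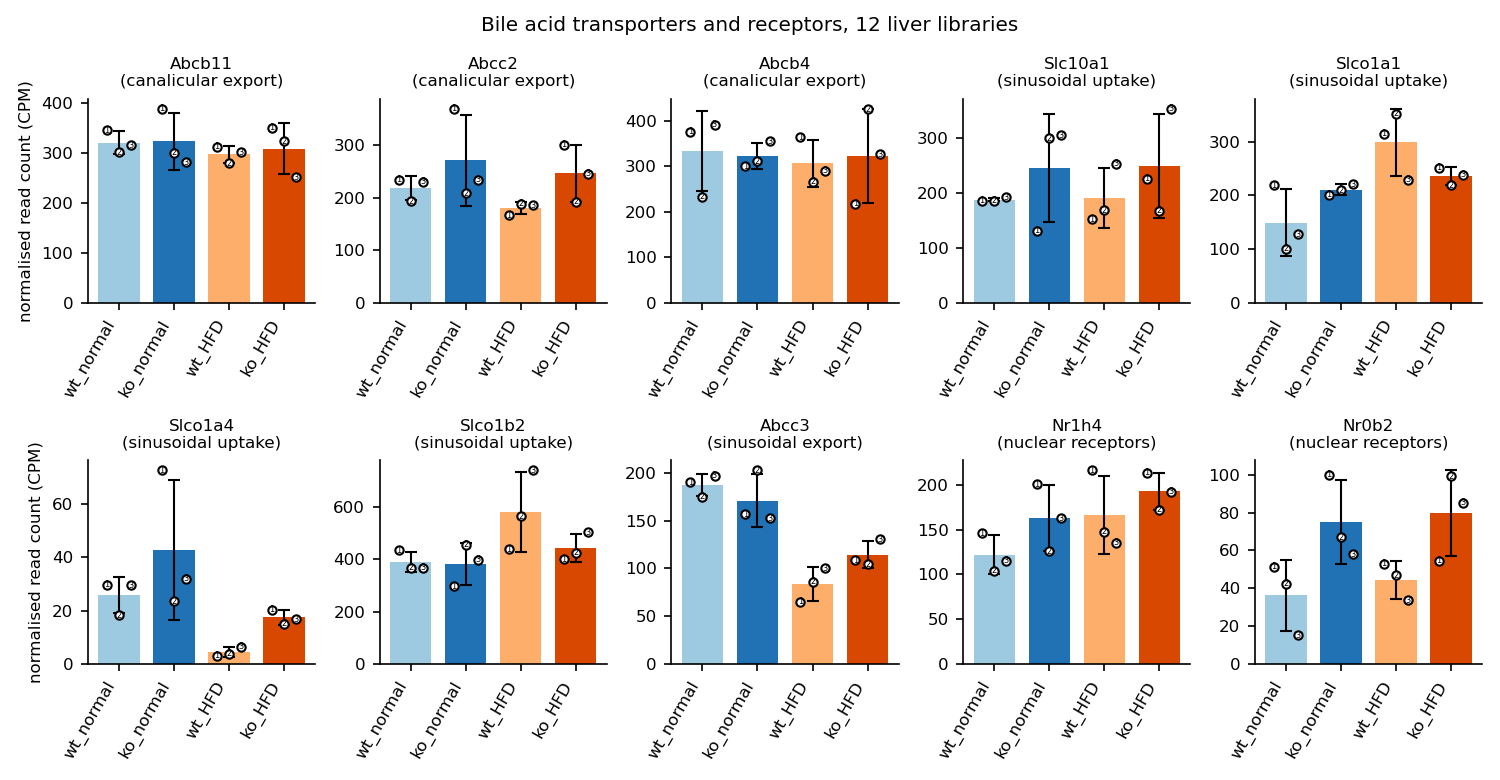
Normalised read counts (CPM, linear axes from 0) of the 10 genes in the 4 groups, with bars for the mean, error bars for the SD of 3 libraries and numbered points for the replicates. Slco1a4 lies between 3.19 and 6.46 CPM in wt_HFD and at 15.1 CPM or above in the other groups, whereas the Abcb11 bars range only from 298 to 324 CPM.

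Members called in each comparison are given beside the share of all genes called. The members were chosen with earlier results of these data known, so this is not an independent contrast. The threshold for a call was an adjusted p under 0.05 in edgeR's quasi-likelihood test, with Benjamini-Hochberg adjustment over all genes. For HFD against normal diet in wild-type liver, 2 of the 10 were called, both lower, where 0.693% of all genes were called and 0.263% were called lower. The same diet comparison in knockout liver called 0 of 10 and 0% of all genes. The unadjusted p was under 0.05 for 2 members (Slco1a4 and Abcc3) and 5.63% of all genes, and DESeq2 and voom each called 0 members. Averaged over both genotypes, the diet comparison called 2 members, both lower, against 1.04% of all genes and 0.457% called lower.

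For knockout against wild type on normal diet, 0 of 10 were called against 0.208% of all genes, and 1 member, Nr0b2, had an unadjusted p under 0.05, as had 15.1% of all genes. DESeq2 called 0 members there and voom called 3 (Nr0b2, Slco1a1 and Slc10a1). Of all 14433 genes DESeq2 called 491 there and voom 2707. On HFD the same comparison called 0 of 10 against 0.0693%, with 3 members (Slco1a4, Abcc3 and Nr0b2) at an unadjusted p under 0.05 against 8.85% of all genes. DESeq2 called 1 member, Slco1a4, and voom called 0, where they called 83 and 5 of all genes. Averaged over both diets, 1 member was called, higher in knockout, against 1.16% of all genes and 0.79% called higher. The difference between the knockout effects on HFD and on normal diet called 0 members and 0% of all genes, and 3 members (Slco1a4, Slco1a1 and Abcc3) had an unadjusted p under 0.05, against 5.02% of all genes, while DESeq2 and voom called 0 members. These comparisons share libraries, so their values for a gene are not independent of each other. The median log2 change of the 10 genes was 0.34 and 0.30 for knockout against wild type on normal diet and on HFD, and -0.04 and 0.01 for HFD against normal diet in wild type and in knockout. Over all genes tested the corresponding medians were -0.02, -0.01, -0.03 and 0.00. Other gene lists described below also had positive knockout medians on normal diet and on HFD. These were 0.55 and 0.16 for other liver transporters, 0.19 and 0.18 for bile acid synthesis and 0.18 and 0.13 for hepatocyte markers. Receptors and factors that act on bile acid genes had 0.08 and -0.03.

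Counted by libraries that did not overlap between groups, HFD in wild type had 2 members higher (Slco1a1 and Slco1b2), against 11.2% of all genes, and 3 lower (Slco1a4, Abcc3 and Abcc2), against 10.7%. HFD in knockout had 2 lower (Slco1a4 and Abcc3), against 5.96% of all genes. For knockout against wild type, 4 members were higher on HFD (Slco1a4, Abcc3, Abcc2 and Nr0b2), against 6.7% of all genes, and 1 on normal diet (Nr0b2), against 11.4%. Across all libraries, 1 member, Nr0b2, was higher in every knockout library, as were 0.901% of all genes, and 1, Abcc3, was lower in every HFD library, as were 0.686%.

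**Figure D2:**
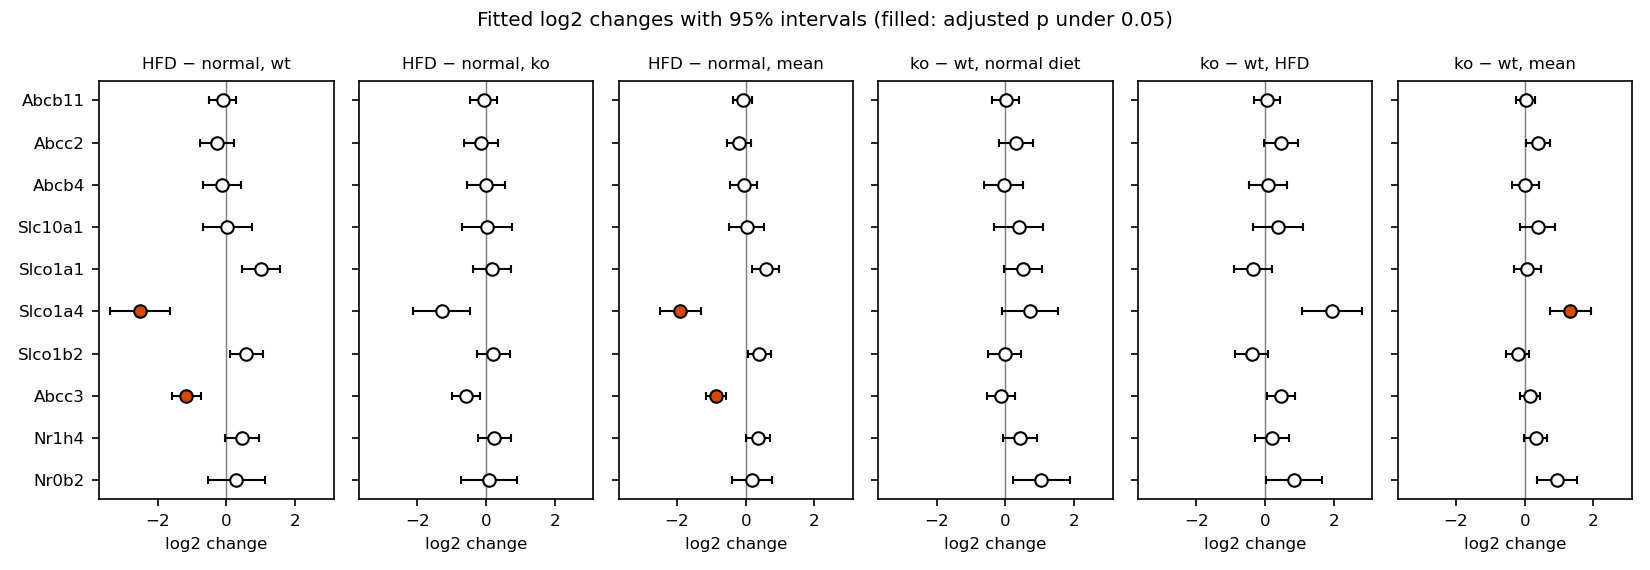
Fitted log2 changes of the 10 genes (horizontal axis) with 95% intervals in 6 comparisons, with filled points for an adjusted p under 0.05. The filled points are Slco1a4 and Abcc3 for the diet in wild type and for the diet averaged over genotypes, and Slco1a4 for knockout averaged over diets.

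The sinusoidal uptake carriers include 3 neighbours on chromosome 6. In the GENCODE M21 annotation of build GRCm38, Slco1b2 (ENSMUSG00000030236, 141629518 to 141686646, plus strand) lies 118793 bp from Slco1a4 (ENSMUSG00000030237, 141805440 to 141856199, minus strand), and Slco1a1 (ENSMUSG00000041698, 141907282 to 141946962, minus strand) lies a further 51082 bp on. These positions were looked up by gene identifier and are not the coordinates used for counting. The 250 bases before the start of each gene are shown because the fitted diet values of these neighbours in wild type differed in sign. Only that of Slco1a4 was called in edgeR's test. They are RefSeq sequences on build GRCm38.p6, written 5′ to 3′ on the strand of the gene, with the nuclear receptor half-site AGGTCA or its reverse complement TGACCT in capitals.
Slco1a4, chr6:141856221-141856470, minus strand: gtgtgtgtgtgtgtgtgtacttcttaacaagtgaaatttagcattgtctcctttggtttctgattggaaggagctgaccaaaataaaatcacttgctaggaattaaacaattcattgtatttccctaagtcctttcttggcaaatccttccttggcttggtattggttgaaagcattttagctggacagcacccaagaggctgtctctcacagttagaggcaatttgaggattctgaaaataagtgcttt
Slco1a1, chr6:141946963-141947212, minus strand: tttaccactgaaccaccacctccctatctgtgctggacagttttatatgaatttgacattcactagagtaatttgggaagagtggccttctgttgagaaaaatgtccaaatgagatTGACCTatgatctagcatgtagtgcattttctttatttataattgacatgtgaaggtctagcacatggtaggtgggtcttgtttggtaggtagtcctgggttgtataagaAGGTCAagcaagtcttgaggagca
Slco1b2, chr6:141629268-141629517, plus strand: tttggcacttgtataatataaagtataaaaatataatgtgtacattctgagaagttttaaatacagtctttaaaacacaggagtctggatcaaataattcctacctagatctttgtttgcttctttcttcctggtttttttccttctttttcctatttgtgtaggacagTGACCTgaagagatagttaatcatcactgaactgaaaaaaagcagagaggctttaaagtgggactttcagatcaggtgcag

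The Slco1a4 stretch held 0 matches to the half-site, Slco1a1 held 2 and Slco1b2 held 1. RefSeq windows of 300 bases, from 250 before to 50 after a start, were found for 9 of the 10 genes, with 10 windows in all. The half-site occurred on either strand in 6 of these 10, those of Abcb11, Slco1b2, Slco1a1, Nr1h4, Slc10a1 and Abcc2, and in 16.3% of the 32851 windows of the genome. The inverted repeat AGGTCANTGACCT, which holds 2 half-sites and is a known form of FXR element, occurred in 0 of the 10 windows and in 0.00913% of all windows. The direct repeat AGGTCANAGGTCA, which also holds 2 half-sites, occurred in 0 of 10 and in 0.0396%. The E-box CACGTG occurred in 1 of the 10, that of Nr0b2, and in 7.15% of all windows, GTTAAT (an HNF1 half-site) in 2 and in 7.10%, and TATAAA in 4 and in 13.6%. Such matches describe the letters of these windows only.

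Slco1a4, the carrier known as Oatp1a4 that takes up bile acids, steroid conjugates and cardiac glycosides, fell on HFD. Its normalised counts were 29.8, 18.2 and 29.6 CPM in wt_normal and 3.19, 3.94 and 6.46 CPM in wt_HFD. Every wt_HFD library lay below every wt_normal library. The fitted change was -2.51 on the log2 scale (SE 0.41, 95% interval -3.39 to -1.63), 5.69-fold lower, with an adjusted p of 0.0240 in edgeR's quasi-likelihood test. In knockout liver the counts were 72.7, 23.5 and 31.9 CPM on normal diet and 20.4, 15.1 and 16.8 CPM on HFD, again without overlap. The change there, -1.29 (SE 0.38), had an unadjusted p of 0.00496 and an adjusted p of 0.617. Averaged over both genotypes the change was -1.90 (SE 0.28, adjusted p = 0.00940). In whole liver, fewer cells of a type and less RNA per cell cannot be told apart.

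The call in wild type was lost without wt_normal replicate 3 (log2 change -2.40, adjusted p = 0.0830), without wt_HFD replicate 1 (-2.31, 0.0730) and without wt_HFD replicate 2 (-2.39, 0.0747). In knockout liver the diet value moved to -0.67 without ko_normal replicate 1, the library with the highest Slco1a4 count and the highest mitochondrial share.

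Slco1a4 was also higher in knockout liver when both diets were averaged, with a log2 change of 1.33 (SE 0.27, 2.52-fold, adjusted p = 0.0398). On HFD all knockout libraries lay above all wild-type libraries, 15.1 to 20.4 against 3.19 to 6.46 CPM, and the change of 1.94 (SE 0.40) had an adjusted p of 0.150. Its unadjusted p was 0.000353. On normal diet the change was 0.72 (SE 0.37, adjusted p = 0.388) and the groups overlapped. Without ko_normal replicate 1 that value was 0.10. The averaged call was lost in 10 of the 12 fits that left out 1 library, with log2 changes from 1.02 to 1.42 and adjusted p from 0.0560 to 0.0911, and was kept without ko_normal replicate 2 and without wt_HFD replicate 3. The knockout effect on HFD exceeded that on normal diet by 1.22 (SE 0.54), with an unadjusted p of 0.0431 and an adjusted p of 0.970.

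Slco1a1, or Oatp1a1, the organic anion carrier next to Slco1a4, had diet values of the opposite sign in wild-type liver. The counts were 219, 101 and 128 CPM in wt_normal and 316, 352 and 229 CPM in wt_HFD, without overlap. The log2 change of 1.005 (SE 0.26) had an unadjusted p of 0.00189 and missed the call with an adjusted p of 0.0935. It was 1.39 with an adjusted p of 0.0306 without wt_normal replicate 1, and DESeq2 and voom called it with all libraries. In knockout liver the counts were 201, 210 and 221 CPM on normal diet and 252, 219 and 239 CPM on HFD, which overlapped, with a change of 0.17 (SE 0.25, adjusted p = 0.957). The diet value in knockout was lower than in wild type by a log2 difference of -0.84 (SE 0.36, adjusted p = 0.968).

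Slco1b2, or Oatp1b2, which takes up unconjugated bile acids and bilirubin, read 434, 366 and 366 CPM in wt_normal and 436, 562 and 739 CPM in wt_HFD. The wt_HFD libraries lay above those of wt_normal, by a small margin for replicate 1. The log2 change of 0.58 (SE 0.22) was not called (adjusted p = 0.216). Knockout libraries read 296, 454 and 397 CPM on normal diet and 399, 425 and 501 CPM on HFD, which overlapped.

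Slc10a1, or NTCP, the sodium-dependent carrier of conjugated bile acids, read 186, 186 and 192 CPM in wt_normal and 152, 169 and 253 CPM in wt_HFD. In knockout liver it read 131, 299 and 304 CPM on normal diet and 226, 168 and 353 CPM on HFD. The wt_normal libraries lay close together and the other groups were spread widely, so that all groups overlapped. The change averaged over diets was 0.38 for knockout against wild type (SE 0.24, adjusted p = 0.404), and that for HFD against normal diet was 0.03 (SE 0.23, adjusted p = 0.969).

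Per kilobase of exon, the summed level of the uptake carriers was 197 ± 20 CPM per kb in wt_normal, 236 ± 58 in ko_normal, 262 ± 46 in wt_HFD and 250 ± 54 in ko_HFD. Slc10a1 and Slco1b2 made up most of it in every library. The share of Slco1a4 was 2.04 ± 0.43% in wt_normal, 3.31 ± 3.0% in ko_normal, 0.264 ± 0.054% in wt_HFD and 1.12 ± 0.26% in ko_HFD. Slco1a1 made up 14.1 ± 4.4%, 17.7 ± 4.3%, 22.5 ± 7.3% and 18.4 ± 3.3% in the same order. The ratio of Slco1a1 to Slco1a4 lay between 5.24 and 8.94 in wt_normal and between 43.2 and 120 in wt_HFD. It lay between 3.36 and 10.9 in ko_normal and between 15.0 and 17.6 in ko_HFD, so the ranges of the HFD groups touched neither each other nor those on normal diet.

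**Figure D3:**
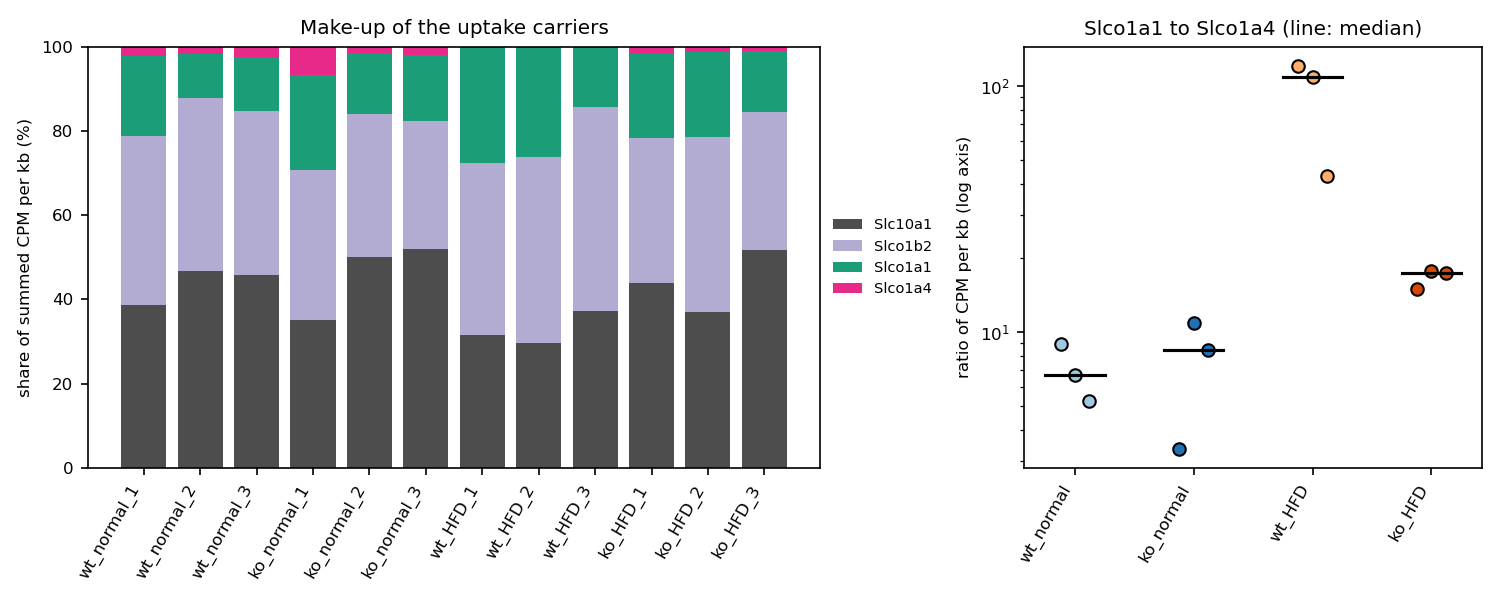
Left, the share (%) of each uptake carrier in their summed CPM per kb in each library, and right, the ratio of Slco1a1 to Slco1a4 per kb on a log axis, with points for libraries and lines for medians. The Slco1a4 share is smallest in wt_HFD, at 0.228% to 0.325%, where the ratio is 43.2 to 120.

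Copies of these carriers are similar, which bears on counting. Of the distinct stretches of 50 bases in the Slco1a4 transcripts, 1.61% also occurred in another gene, mostly Slco1a5, and of those of Slco1a1 1.64% did, mostly Slco1a4. Slco1a5, a carrier of the same family, had 0 counts in all 12 libraries, where 3 counts correspond to 0.141 to 0.193 CPM, and Slco1a6 had 0 to 5 counts.

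Abcc3, or MRP3, which exports bile acid conjugates and glucuronides across the sinusoidal membrane, fell on HFD. Its counts were 190, 175 and 197 CPM in wt_normal and 65.2, 86.1 and 100.04 CPM in wt_HFD. Knockout libraries read 157, 203 and 153 CPM on normal diet and 109, 105 and 131 CPM on HFD. Every HFD library lay below every normal-diet library across both genotypes. In wild type the log2 change was -1.16 (SE 0.19), 2.24-fold lower, with an adjusted p of 0.0240, and averaged over genotypes it was -0.87 (SE 0.13, adjusted p = 0.0122).

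In knockout liver alone the Abcc3 diet change was -0.58 (SE 0.19) with an unadjusted p of 0.00934 and an adjusted p of 0.722. The knockout effect on HFD was 0.45 (SE 0.19), with no overlap, and an adjusted p of 0.533. It differed from that on normal diet, -0.13 (SE 0.19), by 0.59 (SE 0.27, adjusted p = 0.978). The call in wild type was lost in 6 of 20 alternatives, with adjusted p from 0.0509 to 0.0830: with only the groups compared, and without wt_normal replicate 2 or 3, ko_normal replicate 3, or wt_HFD replicate 1 or 2. The calls of Abcc3 and Slco1a4 for HFD averaged over genotypes were kept in all 19 alternatives.

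The canalicular exporters passed no test, and DESeq2 and voom also called 0 of the 3. At an unadjusted p under 0.05 there was 1, Abcc2 for knockout averaged over diets. Abcb11, the bile salt export pump, read 346, 302 and 316 CPM in wt_normal, 390, 301 and 282 CPM in ko_normal, 313, 280 and 301 CPM in wt_HFD and 351, 324 and 252 CPM in ko_HFD. All groups overlapped. The 95% interval of its averaged change was -0.36 to 0.19 for HFD against normal diet and -0.24 to 0.31 for knockout against wild type, on the log2 scale. Exons of Abcb11 share 136 bp with the antisense gene Gm13613, and reads there cannot be assigned without strand.

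Abcb4, or MDR2, which moves phospholipid into bile, had group means between 306 and 333 CPM, and single libraries ran from 217 to 425 CPM, both in ko_HFD. Its averaged intervals were -0.45 to 0.34 for the diet and -0.38 to 0.41 for the genotype. Abcc2, or MRP2, the canalicular exporter of bilirubin glucuronides and other conjugates, read 235, 193 and 230 CPM in wt_normal and 166, 189 and 186 CPM in wt_HFD. In knockout liver it read 370, 209 and 235 CPM on normal diet and 301, 193 and 246 CPM on HFD. On HFD the knockout libraries lay above those of the wild type and the change of 0.45 (SE 0.23) had an adjusted p of 0.598. Averaged over diets the change was 0.38 (SE 0.16) with an unadjusted p of 0.0356 and an adjusted p of 0.228. The highest value, 370 CPM, was in ko_normal replicate 1, and without that library the change on normal diet went from 0.31 to 0.02.

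Nr0b2, which encodes SHP, read higher in every knockout library than in any wild-type library without a call. The counts were 51.3, 42.3 and 15.3 CPM in wt_normal and 99.8, 66.8 and 58.0 CPM in ko_normal. On HFD they were 52.8, 46.9 and 33.6 CPM in wild type and 54.6, 99.1 and 85.2 CPM in knockout. The lowest knockout library read 54.6 CPM and the highest wild-type library 52.8 CPM. The averaged log2 change was 0.94 (SE 0.27, 1.92-fold) with an unadjusted p of 0.00399 and an adjusted p of 0.102, and it was called by DESeq2 (adjusted p = 0.0147) and voom (0.0391). It was 1.05 (SE 0.38, adjusted p = 0.218) on normal diet and 0.84 (SE 0.38, adjusted p = 0.563) on HFD. The diet value averaged over genotypes was 0.19 (SE 0.27, adjusted p = 0.745).

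Nr1h4, which encodes FXR, read 146, 104 and 115 CPM in wt_normal and 201, 126 and 162 CPM in ko_normal. On HFD it read 216, 148 and 135 CPM in wild type and 214, 172 and 192 CPM in knockout. All groups overlapped except wt_normal and ko_HFD, which differ in both factors. The averaged changes were 0.35 (SE 0.16, adjusted p = 0.285) for HFD and 0.32 (SE 0.16, adjusted p = 0.314) for knockout.

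Other genes of bile acid and organic anion handling were taken from lists. Of 21 other liver transporters 17 were tested. Slc22a7, or OAT2, a sinusoidal organic anion transporter, rose on HFD, from 6.05 to 13.7 CPM in wt_normal to 33.6 to 51.5 CPM in wt_HFD, a log2 change of 2.17 (SE 0.38, adjusted p = 0.0274). Averaged over genotypes it rose by 1.77 (adjusted p = 0.0108), and Slco2a1, a prostaglandin carrier, fell by 0.51 (SE 0.11, adjusted p = 0.0413). In the remaining 5 comparisons 0 of the 17 were called. For knockout on normal diet 8 had an unadjusted p under 0.05, against 15.1% of all genes. DESeq2 called 2 there and voom 9, against 491 and 2707 of all 14433 genes. For knockout averaged over diets 8 had such a p, against 18.7%, and DESeq2 and voom each called 5, against 787 and 898. In the others of these 5 comparisons 1 to 3 had such a p, and DESeq2 and voom called 0. For knockout averaged over diets Slc22a7 was at 1.10 (SE 0.26, adjusted p = 0.0616). Among transporters called in no comparison, the values nearest to a call were those of Slc47a1, a proton-coupled exporter of organic cations, at 0.72 (adjusted p = 0.0731) and Abcg8, a canalicular sterol exporter subunit, at 0.49 (adjusted p = 0.0901), both for knockout averaged over diets, and of Slc10a2, a sodium-dependent bile acid carrier, at 1.46 (adjusted p = 0.0986) for HFD averaged over genotypes. The sinusoidal bile acid exporter formed by Slc51a and Slc51b was at the limit of detection, with 0 counts of Slc51a in all 12 libraries and 0 to 13 counts of Slc51b.

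Of 18 receptors and factors that act on bile acid genes 16 were tested and 0 were called in any of the 7 comparisons. At an unadjusted p under 0.05 there were 0 to 5 per comparison, with the 5 for HFD in wild type, against 17% of all genes. DESeq2 called 0 throughout. Voom called 2 for knockout on normal diet, against 2707 of all 14433 genes, and 0 elsewhere. The smallest adjusted p among them for the averaged diet comparison was 0.139, for Nfe2l2, which encodes NRF2, at -0.53. Of 16 genes of bile acid synthesis 15 were tested. Akr1d1, the steroid 5-beta-reductase of the pathway, fell on HFD in wild type by 1.42 (adjusted p = 0.0355) and was higher in knockout on HFD by 2.07 (adjusted p = 0.0136) and averaged over diets by 1.40 (adjusted p = 0.00469). Values of 3 other synthesis genes were nearest to a call: Cyp7b1, the oxysterol 7-alpha-hydroxylase, at 1.26 (adjusted p = 0.0618) and Cyp8b1, the sterol 12-alpha-hydroxylase, at -1.72 (adjusted p = 0.189) for HFD in wild type, and Cyp39a1, another oxysterol hydroxylase, at 1.22 (adjusted p = 0.122) for HFD averaged over genotypes. Cyp7a1, the rate-limiting enzyme of bile acid synthesis and a known target of SHP repression, read 16.6 ± 8.2 CPM in wt_normal, 23.9 ± 14 in ko_normal, 17.5 ± 9.4 in wt_HFD and 59.3 ± 56 in ko_HFD. Its knockout change averaged over diets was 1.14 (SE 0.47, adjusted p = 0.218).

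PXR, CAR and NRF2 are xenobiotic and stress sensors known to induce Slco1a4 and Abcc3 in liver. Of 16 listed PXR and CAR targets 15 were tested. In wild-type liver on HFD, 2 were called lower, the oxidase Cyp3a11 at -3.69 (adjusted p = 0.000221) and the glutathione transferase Gstm1 at -1.35 (adjusted p = 0.0483). The median of the list was -0.44 and 11 of 15 values were negative. In knockout liver on HFD the median was 0.17 and 9 of 15 were positive, with 0 called, 4 at an unadjusted p under 0.05, and 1 called by each of DESeq2 and voom. Cyp3a11 read 1274 to 1651 CPM in wt_normal, 77.8 to 162 in wt_HFD, 1181 to 1521 in ko_normal and 256 to 465 in ko_HFD. Averaged over diets, Cyp2a5 was higher in knockout by 1.79 (adjusted p = 0.00557), and on HFD all 15 knockout values were positive with a median of 0.94 and 0 calls, 6 at an unadjusted p under 0.05, 2 called by DESeq2 and 0 by voom. Of 12 NRF2 targets 11 were tested, and in wild type on HFD Gsta2 fell by 4.49 (adjusted p = 0.00151) and Nqo1 fell by 1.28 (adjusted p = 0.0480), with a list median of -0.17. Both genes had low levels. Gsta2 read 17.1 to 20.3 CPM in wt_normal and 0.481 to 1.42 CPM in wt_HFD, with 8 counts in its lowest library. Nqo1 read 5.47 to 7.14 CPM in wt_normal and 2.10 to 2.89 CPM in wt_HFD. Cyp3a11, Gstm1, Cyp2a5 and Gsta2 have close paralogs, so their counts are uncertain. The part of PXR, CAR and NRF2 in the results for Slco1a4 and Abcc3 was not tested.

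Values of other gene groups are given for the same comparisons as those of Slco1a4 and Abcc3. For HFD in wild type, all 14 acute phase genes had positive values with a median of 1.37 and 0 calls. An unadjusted p under 0.05 was found for 6, DESeq2 called 4 and voom 2, and their summed level was 21797 to 35995 CPM in wt_normal and 82720 to 89877 CPM in wt_HFD. It was 12686 to 34701 CPM in ko_normal. In ko_HFD it was 92086 CPM in replicate 1 and 18434 and 21418 CPM in the others. All 11 liver endothelial markers had negative values with a median of -0.66, and the sums were 441 to 520 CPM in wt_normal and 289 to 398 CPM in wt_HFD. Of 11 stellate cell markers 10 were negative, with a median of -0.86. Their sum was 863 CPM in wt_normal replicate 2, the library with skeletal muscle transcripts, and 204 and 277 CPM in the others of that group. In wt_HFD the sums were 104 to 388 CPM. Of the endothelial and stellate markers 0 were called in this comparison, with 5 and 2 at an unadjusted p under 0.05 where 17% of all genes were, and DESeq2 and voom called 0. The part of these groups in the result was not tested.

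For knockout averaged over diets, all 11 endothelial markers were negative with a median of -0.71, and Lyve1, a hyaluronan receptor of sinusoidal endothelium, was called lower (-1.82, adjusted p = 0.0345). Of 11 stellate markers 10 were negative with a median of -0.82 and Rgs5 was called lower (-1.13, adjusted p = 0.0347). The wild-type side of that comparison includes wt_normal replicate 2, with its high stellate sum. Of 16 circadian clock genes 4 were called, where 1.16% of all genes were. Per2, Dbp and Hlf were higher by 1.42, 2.76 and 0.75 (adjusted p = 0.0249, 0.0419 and 0.0478) and Arntl was lower at -1.90 (adjusted p = 0.0291). Of the 16 clock genes 10 were positive and 6 negative. An unadjusted p under 0.05 was found for 12, against 18.7% of all genes, and DESeq2 called 8 and voom 10, against 787 and 898 of all genes. Of 12 hepatocyte markers 1, Alb, was called higher (0.86, adjusted p = 0.0391), while 9 were positive, 3 were negative and their median was 0.14. In the averaged diet comparison 1 hepatocyte marker, Cps1, fell by 1.07 (adjusted p = 0.0413), while 7 of the 12 were positive and their median was 0.06. There 2 of 16 male-biased genes, Nudt7 and Cyp2u1, rose by 1.16 (adjusted p = 0.0385) and 0.75 (adjusted p = 0.0486), while 9 of the 16 were negative and their median was -0.20. Nudt7 also rose on HFD in wild type, by 1.81 (adjusted p = 0.0322), and Cyp2u1 was called higher for knockout averaged over diets, at 0.80 (adjusted p = 0.0388). The part of these genes in the results for Slco1a4, Abcc3 and Nr0b2 was not tested. Of the cholangiocyte, Kupffer cell, B and T cell, skeletal muscle, and intestine and pancreas markers, edgeR's test called 0 in any comparison, with 0 to 9 of a list at an unadjusted p under 0.05, and DESeq2 or voom called at most 3 of a list.

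The gene with the pattern most like that of Slco1a4 was found by the root mean square difference of centred log2 CPM over the 12 libraries, among 12687 genes. The nearest was Snhg11, a long non-coding RNA, at 0.51, where Slco1a4 itself deviated by 1.25 from its own mean and the median over all genes was 1.30. Snhg11 read 17.8, 26.4, 3.32 and 7.26 CPM on average in wt_normal, ko_normal, wt_HFD and ko_HFD.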

How the data were processed

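Liver RNA was sequenced in 12 libraries of 4 groups. The deposited files hold whole-number read counts per gene, unnormalised, 1 file per library. CASAVA 1.8, Bowtie 0.12.2 and builds mm8 and mm9 are named, without roles, in the submitters' processing notes. How and with which annotation the authors counted reads, and whether by strand, is not given in the sources used here, so reads of overlapping or near-identical genes cannot be assigned with certainty. Of 52636 Ensembl identifiers 52403 were matched to a symbol in GENCODE M21.

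Genes were filtered with filterByExpr (14433 kept), scaled with TMM factors and tested with edgeR 4.0.16 under R 4.3.3. The 2-sided quasi-likelihood F-test used 1 fit of the 4 groups, with 8 residual and 4.66 prior degrees of freedom. Benjamini-Hochberg adjustment ran over all 14433 genes of a comparison. Log2 CPM used a prior count of 2. The 7 comparisons were knockout against wild type and HFD against normal diet, each in both strata and averaged, and the difference between the knockout effects. Between replicates, the chi-square per degree of freedom was 39.5 to 199 over genes with at least 20 counts, so no pair agreed within sampling noise. Precision is set by 3 libraries per group and by counts of 53 to 1255 for Slco1a4, the member with the lowest level.

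The members and gene lists were chosen with earlier results of these data known. The text names all 10 members, Trp53, up to 4 called genes of a list and comparison, by adjusted p, Cyp7a1, the nearest misses of 3 lists, the 2 highest markers of a cell type and the gene nearest in pattern to Slco1a4 (that for Abcc3 is not reported here). Alternatives were other scaling factors and filters, DESeq2 1.42.0, voom of limma 3.58.1 with sample weights, only the groups compared, the replicate number as a block, and each library left out.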

Additional observations from a re-analysis of the deposited data

How the results depend on the processing

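The averaged diet falls of Slco1a4 and Abcc3 kept their call in all 19 alternatives, at log2 changes of -2.07 to -1.59 and -0.94 to -0.79. Of 1370 member values under alternatives, 1318 kept their direction and side of the threshold or stayed within 1 SE, 17 moved further, 19 lost a call, 16 gained one, and 0 called values changed sign. In 73 cases, called under neither fit and counted among those, the sign differed.

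For knockout on normal diet voom called 3 members, against 0 in edgeR's test, and 2707 of all 14433 genes, against 30. For knockout on HFD, no filter and DESeq2 each called 1, against 0. For HFD in wild type, the fit of only the groups compared called 1, against 2, and no filter, DESeq2 and voom each called 3. For HFD averaged over genotypes, DESeq2 and voom each called 3, against 2. For knockout averaged over diets, no filter, DESeq2 and voom each called 2, against 1. Leaving out 1 library gave 0 to 0, 0 to 1, 0 to 3, 0 to 1 and 2 to 3 for knockout on normal diet, knockout on HFD, HFD in wild type, knockout averaged and HFD averaged. For HFD in knockout and the difference of effects it was 0 throughout.

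The labels state no pairing of same-numbered libraries. Over 18 such pairs the correlation ran from -0.21 to 0.33, 4 exceeded 0.1, and 7 of 12 libraries correlated best with their own number. Whether same-numbered libraries were handled together cannot be told from these values. With the replicate block, members called were 0, 0, 2, 0, 1, 2 and 0 over the 7 comparisons, as in the test without it. The cause of these shifts was not tested. The averaged comparisons and the difference of effects use all groups, so the fit of only the groups compared was not run for them.

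Over all genes, calls in knockout on normal diet, knockout on HFD, HFD in wild type, HFD in knockout, knockout averaged, HFD averaged and the difference of effects were 30, 10, 100, 0, 168, 150 and 0 in edgeR's test. In the same order they were 648, 51, 696, 21, 644, 489 and 13 with no filter, 491, 83, 629, 34, 787, 744 and 20 with DESeq2, and 2707, 5, 363, 6, 898, 755 and 1 with voom. With only the groups compared the first 4 were 96, 6, 34 and 2, and the replicate block gave 45 for knockout on normal diet. Leaving out 1 library gave 3 to 84, 2 to 14, 9 to 131, 0 to 6, 45 to 254, 45 to 272 and 0 to 1.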
